A study of Mus musculus with 15 samples.

Results

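H3K27ac peaks were compared between mouse embryonic stem cells (ESC) and the expanded potential stem cells made with the Liu medium (L-EPSC), a chemical medium that is reported to widen what the cells can form. Every peak of the ESC list and of the L-EPSC list was taken, 91308 of the 439369 peaks in the 6 deposited lists of the study, with 64342 from ESC and 26966 from L-EPSC. The study placed J1 ESCs of the 129SV strain into EPSC media and mapped H3K27ac and H3K4me1 by ChIP-seq, with 2 samples for each state and mark and an input for each state. ESCs grew in serum with LIF, 3 µM CHIR99021 and 1 µM PD0325901, which block the kinases GSK3 and MEK. L-EPSCs grew in 20% knockout serum replacement with the same LIF, CHIR99021 and PD0325901, and in addition 0.3 µM A-419259 (a SRC family inhibitor), 5 µM XAV939 (a tankyrase inhibitor that stabilises AXIN), 4 µM JNK inhibitor VIII and 10 µM SB203580 (a p38 inhibitor). J1 is a single line and both states derive from it, so the cell line is shared while medium and passaging differ. Feeder fibroblasts were an option in both protocols, and per the study's methods EPSCs were kept without feeders for several passages before ChIP-seq.

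Acetylation of histone H3 at lysine 27 is laid down by the coactivators p300 and CBP at active promoters and enhancers, and is removed by deacetylases. H3K4me1 marks enhancers whether or not they are active, so an enhancer that loses H3K27ac and keeps H3K4me1 is usually called primed. In pluripotent cells broad H3K27ac domains lie over genes of the pluripotency network, such as Pou5f1, Sox2 and Nanog. Each state has 1 list of peaks, with positions and no scores, so a value here is a count of peaks or the number of bases under peaks in that one list, no spread between samples can be given, and no test was possible. Read depth behind each list is unknown. In bulk chromatin, fewer cells with the mark and less of the mark per cell cannot be told apart.

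The regions that differed most plainly are shown first. Among peaks with no peak of the other state within 10 kb, the widest lost and the widest gained ones were taken, together with an ESC peak among those with the most bases in common with L-EPSC. For 2 lost, 2 gained and 1 shared region, the 300 bases at the centre of the region are printed from mm9, on the plus strand, in lower case. Capitals mark matches on either strand to 8 transcription factor motifs (TCF/LEF, octamer, SOX, ESRRB, KLF, STAT, AP-1 and TEAD). Counting the ESC and L-EPSC lists alone, the first pair was under a peak in ESC only, the second in L-EPSC only and the last window in both.
Lost, between genes, 92748 bp from the start of Tpd52, chr3:9106060-9106359: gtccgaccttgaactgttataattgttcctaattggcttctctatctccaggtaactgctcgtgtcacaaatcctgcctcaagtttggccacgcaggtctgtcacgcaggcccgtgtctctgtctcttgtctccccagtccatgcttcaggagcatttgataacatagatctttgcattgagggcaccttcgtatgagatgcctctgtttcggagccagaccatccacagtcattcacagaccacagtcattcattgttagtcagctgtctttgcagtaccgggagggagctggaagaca
Lost, intron of Tead4, chr6:128209188-128209487: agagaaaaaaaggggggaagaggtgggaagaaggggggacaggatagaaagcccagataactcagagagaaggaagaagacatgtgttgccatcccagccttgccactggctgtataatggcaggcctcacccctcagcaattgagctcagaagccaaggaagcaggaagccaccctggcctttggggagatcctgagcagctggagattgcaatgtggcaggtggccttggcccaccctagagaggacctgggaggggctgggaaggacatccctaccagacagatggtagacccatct
Gained, between genes, 69257 bp from the start of 4930583I09Rik, chr17:65111216-65111515: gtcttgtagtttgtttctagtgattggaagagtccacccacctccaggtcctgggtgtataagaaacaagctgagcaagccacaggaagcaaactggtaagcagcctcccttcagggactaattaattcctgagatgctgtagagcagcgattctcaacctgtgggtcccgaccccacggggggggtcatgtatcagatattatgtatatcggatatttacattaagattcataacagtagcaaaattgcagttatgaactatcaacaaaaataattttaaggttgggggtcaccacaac
Gained, between genes, 62858 bp from the start of 4930524E20Rik, chrX:112087804-112088103: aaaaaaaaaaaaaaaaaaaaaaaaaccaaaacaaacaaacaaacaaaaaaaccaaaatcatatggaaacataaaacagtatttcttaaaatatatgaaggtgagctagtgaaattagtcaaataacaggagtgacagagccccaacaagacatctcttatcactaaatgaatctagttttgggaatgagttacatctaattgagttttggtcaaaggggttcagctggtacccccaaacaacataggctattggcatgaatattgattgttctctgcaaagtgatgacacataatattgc
Shared, over Fbxo36, chr1:84859703-84860002: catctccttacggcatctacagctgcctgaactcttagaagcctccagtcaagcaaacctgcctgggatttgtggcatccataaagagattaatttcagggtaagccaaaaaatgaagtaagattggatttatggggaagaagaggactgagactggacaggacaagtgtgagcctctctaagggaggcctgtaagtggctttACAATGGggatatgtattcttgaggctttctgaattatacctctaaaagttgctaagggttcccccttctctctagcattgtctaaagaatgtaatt
Neither lost window and neither gained window held any of the 8 motifs. The Fbxo36 window held 1 SOX match (ACAATGG). GC content was 49.7% and 56.0% in the lost windows, 44.0% and 31.7% in the gained ones, and 43.3% in the shared one. The gained window on the X chromosome opened with a run of adenines.

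L-EPSCs carried far less listed acetylation than ESCs, and most of what they carried lay inside ESC peaks. ESC peaks covered 107.36 Mb and L-EPSC peaks 34.29 Mb, a ratio of 3.13, and 28.67 Mb were under a peak in both. Of the 64342 ESC peaks, 45418 (70.6%) met no L-EPSC peak and are called lost, and 18924 (29.4%) met one by at least 1 bp and are called kept. Of the 26966 L-EPSC peaks, 3899 (14.5%) met no ESC peak and are called gained. The lost peaks were narrow, with a median width of 703 bp against 2019 bp for the kept ones, so the lost class held 46.15 Mb and the smaller kept class 61.21 Mb. Gained peaks were narrower still, at a median of 444 bp and 2.45 Mb in all.

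Kept, lost and gained peaks lay in different places. Within 1 kb of the start site of a protein-coding gene were 27.4% of the kept ESC peaks, 5.75% of the lost ones and 21.8% of the gained L-EPSC peaks. Introns held 53.1% of the lost peaks and 32.8% of the kept ones. Gained peaks were the farthest from genes, with 47.8% between genes and 22.2% more than 100 kb from any start site, against 11.5% of lost and 11.9% of kept ESC peaks. Many lost peaks lay near acetylation that stayed, since 48.7% of them had an L-EPSC peak within 10 kb, although only 5.41% had one within 1 kb. Gained peaks had an ESC peak within 1 kb in 21.9% of cases and within 10 kb in 58%.

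Width and position each went with being kept. A wider peak has more bases on which 1 bp of overlap can fall, so part of the rise with width is set by the rule. When 50% of the ESC peak had to be covered, 9452 of the 64342 were kept, against 18924. Among ESC peaks under 500 bp, 45.1% of those at start sites and 7.55% of the distal ones met an L-EPSC peak. The shares were 52.4% and 12.6% from 500 bp up to 1 kb, 70.1% and 24.5% from 1 kb up to 2 kb, and 81.4% and 52.6% from 2 kb up to 5 kb. At 5 kb or more they reached 96.1% and 87.5%. At every width start-site peaks were thus kept more often than distal ones, by the most from 1 kb up to 2 kb and by the least at 5 kb or more. H3K4me1 in ESC made little difference at a given width: of distal peaks from 1 kb up to 2 kb, 24.4% were kept with H3K4me1 and 25.7% without, and under 500 bp the shares were 6.7% and 9.67%.

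**Figure D1:**
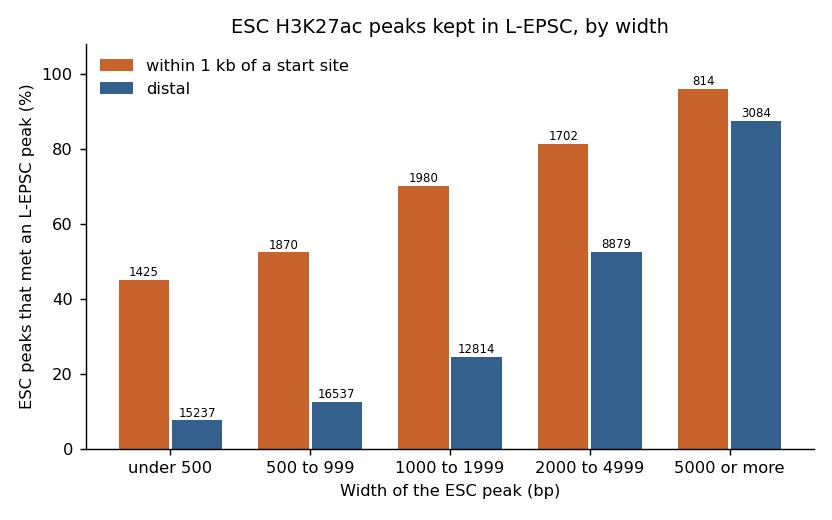
Share of ESC H3K27ac peaks (y axis, %) that met an L-EPSC peak by at least 1 bp, by ESC peak width (x axis, bp) and by place, with the number of ESC peaks above each bar. Start-site peaks rise from 45.1% to 96.1% and distal peaks from 7.55% to 87.5%. Wider peaks offer more bases for 1 bp of overlap, and the shares were not adjusted for this.

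Kept peaks were mostly trimmed rather than retained whole. Of the 18924, 83.2% met a single L-EPSC peak, 11.3% met 2 and 5.49% met 3 or more. The median kept ESC peak was covered over 49.9% of its length. Among the 14343 pairs of 1 ESC and 1 L-EPSC peak that met only each other, the L-EPSC peak was the narrower in 80.7%, with median widths of 1713 bp and 777 bp. The ESC peak was at least 2 times wider in 6570 pairs and the L-EPSC peak in 674.

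Peaks at start sites were kept more often than distal ones. Of 22350 protein-coding genes, 7979 were acetylated in ESC and 6440 in L-EPSC within 1 kb of the annotated start site. Both states had one at 5632, ESC alone at 2347 (29.4% of the ESC start sites) and L-EPSC alone at 808. Directly at the start site of genes with peaks in both states, 67.3% were covered in ESC and 63.5% in L-EPSC, and 250 bp downstream the shares were 75.8% and 76.8%. At 2500 bp upstream they were 27.6% and 8.31%, so the states were far apart on the flanks. That they were nearly level at the start is in large part set by choosing start sites with a peak in both. At the 808 start sites with a peak in L-EPSC alone the L-EPSC signal was a sharp one: 64.9% were covered 250 bp downstream, 21.5% at 500 bp and 2.48% at 2500 bp downstream.

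**Figure D2:**
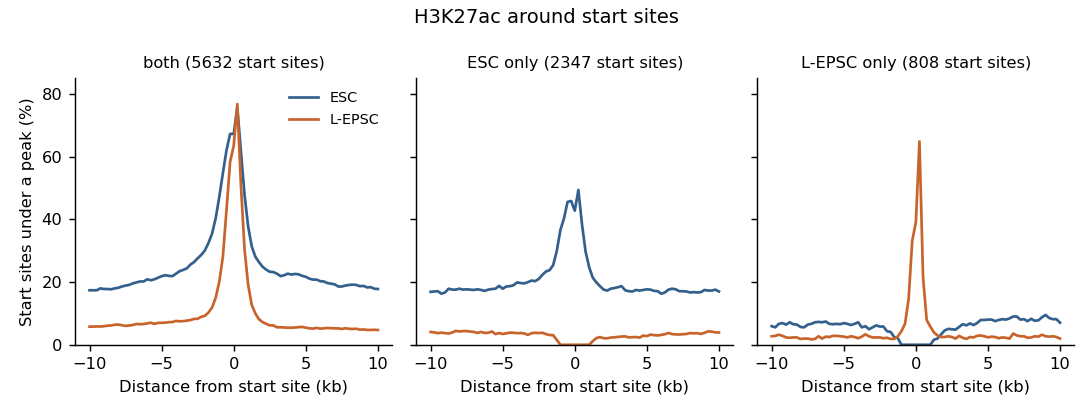
Share of start sites under an H3K27ac peak (y axis, %) against distance from the start site (x axis, kb, positive is downstream), for start sites with a peak within 1 kb in both states, in ESC only and in L-EPSC only. In the first panel the lines meet near the start (75.8% and 76.8% at 0.25 kb) and part on the flanks; the likeness near the start in that panel and the zeros within 1 kb in the others follow from how those classes were made.

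To name genes, the bases under peaks were summed over each gene and 10 kb on either side. A gene was called lost when L-EPSC had at least 2-fold fewer bases than ESC, gained when it had at least 2-fold more, and kept otherwise. It entered with at least 1 kb in either state. Of 11684 such genes 9233 (79%) were lost, 2253 (19.3%) kept and 198 (1.69%) gained. Among 11434 genes with at least 1 kb in ESC, the median L-EPSC value was 24.0% of the ESC value, and 2020 (17.7%) were at 0. The shares over all genes are the background against which every gene group below is read. For genes, gene groups and domains below, a share of bases held, kept or left is L-EPSC bases over ESC bases in the same stretch. It does not ask whether the bases are the same. Windows of neighbours overlap, so 1 peak can count for several genes. Taken against the totals of the lists, which differ by 1.65 on the log2 scale, 4235 genes (36.2%) were lost, 5863 kept and 1586 (13.6%) gained, which sets aside the loss common to the lists.

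**Figure D3:**
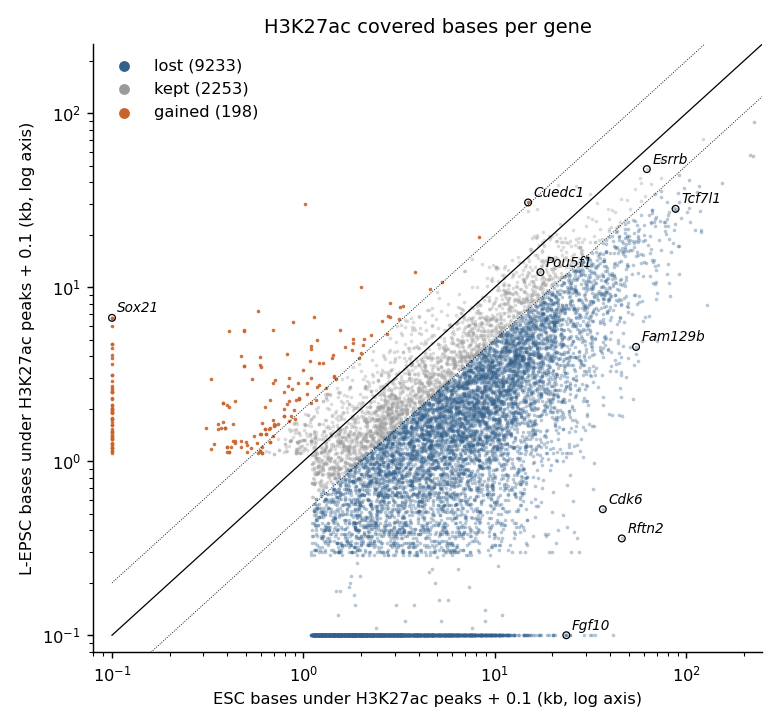
Bases under H3K27ac peaks in each of 11684 genes and 10 kb on either side, ESC (x axis) against L-EPSC (y axis), in kb plus 0.1 on log axes. The solid line marks equal values and the dotted lines 2-fold; 9233 genes lie below, 198 above, and the row at the bottom holds genes with no L-EPSC peak, such as Fgf10 (23.52 kb in ESC).

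At equal covered bases the picture turned, by construction. The 3725 widest ESC peaks (5.79%, all of 5131 bp or more) cover 34.28 Mb, as much as the L-EPSC list. Of these 3337 met an L-EPSC peak and 388 did not, while 19869 L-EPSC peaks then met no ESC peak, since every narrow ESC peak had been left out. Of 7109 genes tested on these lists, 1267 (17.8%) were lost and 4381 (61.6%) gained. The 1267 are a subset of the 9233 lost as listed, and the 198 gained as listed stay gained, since leaving out ESC peaks can only lower a gene's ESC bases. Lost wide peaks were distal in 92.5% of cases and kept ones in 77.6%, the same order as in the full list.

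Most core pluripotency genes kept acetylation over the gene and 10 kb on either side. Among 7 of them 5 were kept and 2 lost, against the background of 79% lost, and together they held 61.2% of their ESC bases. Their start sites had a peak in both states in 7 of 7. Against the list totals 4 of the 7 were gained and none lost, so their direction turns on that scale. Pou5f1, which encodes OCT4, had 17.21 kb under peaks in ESC and 12.11 kb in L-EPSC. Sox2, the partner of OCT4, had 13.56 and 9.70 kb. Nanog, a homeobox factor of the ground state, had 19.59 and 12.65 kb. Sall1, a zinc finger gene related to Sall4, had 29.94 and 22.27 kb. Trim28, the corepressor that silences endogenous retroviruses, had 15.98 and 10.13 kb. The 2 lost members were Sall4, with 24.20 and 9.30 kb, and Zfp281, with 5.78 and 1.08 kb. The count depended on the window: 4 of the 7 were lost with 50 kb on either side, and 4 by nearest start site. With 50 kb on either side, Nanog fell by 1.13 on the log2 scale and passed the 2-fold limit.

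Naive pluripotency genes ranged from nearly whole to emptied. Of 18 tested 11 (61.1%) were lost, beside 79% of all genes, and 7 kept, with 50.1% of bases left. The nuclear receptor Esrrb, a target of GSK3 inhibition, had 62.12 kb in ESC and 47.64 kb in L-EPSC. Neither state had a peak at its annotated start, and when bases were given to the nearest start site its log2 ratio was -2.92, so its call depends on how bases are given to genes. Klf2 had 21.85 and 19.04 kb, and Dppa5a 19.28 and 18.73 kb, which is 97.2% of the ESC value. Fgf4, the main FGF of the inner cell mass, had 23.39 and 14.80 kb. At the other end, Klf5 had 18.39 kb in ESC and 1.11 kb in L-EPSC, Prdm14, which keeps DNA methylation low in naive cells, 20.37 and 2.73 kb, and Dppa4 16.07 and 2.73 kb. Dppa3 (Stella) had 4.93 kb in ESC and was listed at 0 in L-EPSC. In between were Tfcp2l1 with 45.88 and 16.67 kb, Nr5a2 with 28.48 and 8.15 kb, Tbx3 with 28.86 and 13.88 kb, Zfp42 (Rex1) with 16.12 and 7.72 kb and Klf4 with 8.32 and 3.74 kb. H3K4me1 fell less at these genes: it was 25.33 kb in ESC and 23.92 kb in L-EPSC at Klf5, 25.81 and 20.66 kb at Prdm14, 16.76 and 12.35 kb at Dppa4, and 13.97 and 7.56 kb at Dppa3.

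**Figure D4:**
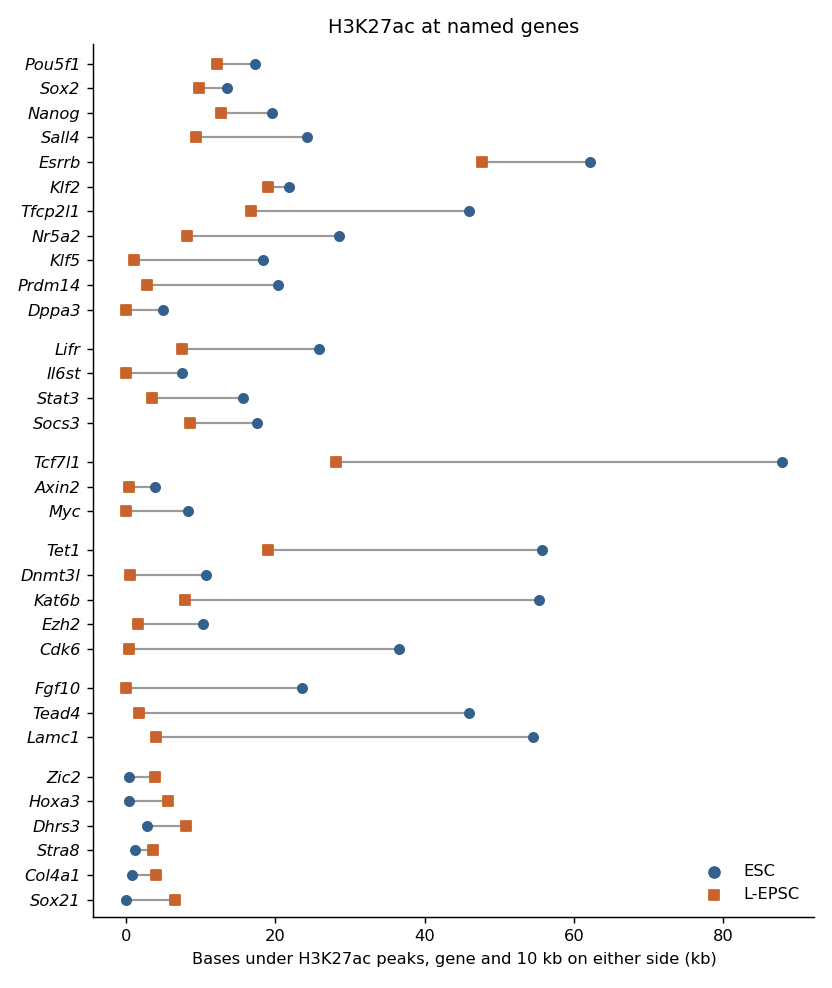
Bases under H3K27ac peaks (x axis, kb) over named genes and 10 kb on either side, in ESC (circles) and L-EPSC (squares), grouped as pluripotency, LIF signalling, Wnt signalling, chromatin and cell cycle, ESC-high genes and genes that gained. Pou5f1, Sox2, Nanog, Esrrb and Klf2 keep over 60% of their ESC value, Dppa3, Il6st, Myc and Fgf10 are at 0 in L-EPSC, and the last 6 genes lie higher in L-EPSC.

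The LIF pathway lost acetylation at nearly every member as listed. LIF was in both media. LIF signals through LIFR and gp130 to JAK kinases and STAT3. Of 16 genes tested 15 (93.8%) were lost, beside 79% of all genes, and 1 was kept, and they held 23.7% of their ESC bases. Il6st, which encodes gp130, had 7.53 kb in ESC and was at 0 in L-EPSC, as were Jak1 (2.03 kb in ESC) and Tyk2 (6.67 kb). Lifr had 25.77 and 7.47 kb, and Stat3 15.70 and 3.44 kb. Il6ra, the IL-6 receptor, had 39.58 and 1.77 kb. Of the feedback genes, Socs3 had 17.57 and 8.54 kb, and Socs2, the kept member, 6.36 and 3.69 kb. Against the list totals 6 of the 16 stayed lost (Il6st, Jak1, Jak2, Tyk2, Cish and Il6ra), near the 36.2% lost over all genes on that scale.

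Wnt genes fell on both sides of the pathway. Tankyrases mark AXIN for destruction, and XAV939 blocks them. All 17 Wnt components tested were lost, beside 79% of all genes, with 27.8% of bases left. Tcf7l1, the repressor that GSK3 inhibition relieves, had 87.80 and 28.12 kb and Ctnnb1 (beta-catenin) 7.19 and 1.88 kb. Tnks had 28.64 and 10.95 kb, and Tnks2 8.67 and 1.91 kb. Axin1 had 4.78 kb in ESC and was at 0 in L-EPSC. Against the list totals 4 of the 17 stayed lost, a smaller share than the 36.2% of all genes. Of 9 Wnt target genes tested 8 (88.9%) were lost, beside 79% of all genes. Their median log2 ratio was -2.86 against -1.94 over all genes tested. Axin2, the classic feedback target, had 3.88 and 0.37 kb. Cdx1 (7.28 kb in ESC), Myc (8.29 kb) and Dkk1 (1.53 kb) were at 0 in L-EPSC. Notum, a secreted Wnt deacylase, was the kept one, with 11.72 and 10.20 kb. Lef1, Sp5, T and Cdx2 had no peak in either state.

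Genes downstream of ERK were mixed. MEK was inhibited in both media, and Dusp, Spry and Spred genes are feedback inhibitors of the pathway. Of 18 tested 13 (72.2%) were lost, beside 79% of all genes, 4 kept and 1 gained, with 36.3% of bases left. Spry4 had 22.03 kb in ESC and 1.71 kb in L-EPSC, Spry2 12.72 and 1.61 kb, and Il17rd (Sef) 45.49 and 3.87 kb. Etv5, an ETS factor, was kept with 54.08 and 36.72 kb, and the immediate early gene Ier2 with 16.54 and 12.03 kb. Dusp6 was close to the limit with 5.59 and 2.76 kb. The gained member was Fos, with 0.49 and 1.33 kb. Among 9 AP-1 genes 6 (66.7%) were lost, beside 79% of all genes, 1 kept and 2 gained, beside 1.69% of all genes. The gained ones were Fos and Atf3 (0.47 and 1.17 kb), both little above the 1 kb needed to enter. Jund was the kept one with 14.04 and 9.39 kb, and Junb was among the lost with 16.56 and 4.49 kb.

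Genes for the kinase families that the L-EPSC medium inhibits were lost about as often as genes at large. Of 16 SRC, JNK and p38 genes 13 (81.2%) were lost, beside 79% of all genes. Src had 47.80 and 10.00 kb, Mapk8 (JNK1) 1.12 and 0.41 kb, and Mapk14 (p38 alpha) 6.91 and 1.39 kb. Fyn was kept, with 11.90 and 7.31 kb.

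Genes of the Nodal pathway were partly kept. Nodal is a TGF-beta ligand and the Lefty proteins antagonise it. Nodal had 17.35 and 9.79 kb and was kept, its co-receptor gene Tdgf1 (Cripto) had 18.36 and 10.36 kb and was kept, and Lefty1 had 6.92 and 3.65 kb, a fall that turned to a log2 ratio of 0.28 by nearest start site. Lefty2 was lost, with 20.20 and 4.93 kb, and so was Smad7, with 28.80 and 7.87 kb. In all 9 of 14 (64.3%) were lost, beside 79% of all genes, and 5 kept, and against the list totals none was lost. With 50 kb on either side Nodal passed the limit too, at a log2 ratio of -2.46.

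Among 11 FGF ligand genes 8 (72.7%) were lost, beside 79% of all genes, and 3 kept. Fgf10, a ligand of FGFR2b known from limb and lung budding, had 23.52 kb in ESC and none in L-EPSC, and its H3K4me1 was 21.01 kb and 5.26 kb. Fgf3 had 14.25 and 2.87 kb, and Fgf17 10.44 and 1.66 kb. Fgf1 went the other way, with 14.76 kb in ESC and 27.49 kb in L-EPSC, a rise just under the 2-fold limit.

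Genes for DNA methylation and its removal lost acetylation in 12 of 13 cases (92.3%), beside 79% of all genes. Against the list totals 5 of the 13 stayed lost, near the 36.2% of all genes. Dnmt3l, the cofactor of the de novo enzymes, had 10.68 and 0.47 kb, and Uhrf1, which brings DNMT1 to replicated DNA, 15.72 and 1.43 kb. Tet1 had 55.76 and 18.99 kb and Tet2 43.56 and 20.90 kb, with a peak at the start site in both states. The exception was the de novo enzyme gene Dnmt3a, with 6.45 and 7.51 kb. Its direction depended on the window, since the log2 ratio was 0.22 as given, -0.20 with 50 kb on either side and -1.83 by nearest start site.

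Histone acetyltransferase and deacetylase genes were lost in 18 of 18 cases, beside 79% of all genes, with 23.5% of bases left. Kat6b had 55.28 and 7.94 kb, Kat2b 65.20 and 23.24 kb, and Crebbp, which encodes CBP, 11.14 and 1.64 kb. Ep300 had 4.97 and 2.31 kb, Hdac1 13.49 and 2.69 kb and Sirt1 20.82 and 2.68 kb. Against the list totals 7 of the 18 stayed lost, near the 36.2% of all genes, and none was gained. Of 11 Polycomb repressive complex 2 genes 9 (81.8%) were lost, near the 79% of all genes. Their median log2 ratio was -2.60, against -1.94 over all genes tested, and 6 of the 11 stayed lost against the list totals. The catalytic gene Ezh2 had 10.28 and 1.61 kb, Eed 12.93 and 1.58 kb, Suz12 13.88 and 2.08 kb, and Jarid2 77.98 and 20.17 kb. The accessory gene Phf1 (1.53 and 1.13 kb) and the histone chaperone gene Rbbp7 (2.22 and 1.83 kb) were kept.

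Cell cycle genes lost acetylation in 17 of 18 cases (94.4%), beside 79% of all genes. Against the list totals only 4 of the 18 were lost, a smaller share than the 36.2% of all genes. Cdk6, a G1 kinase, had 36.55 kb in ESC and 0.43 kb in L-EPSC, the lowest share of any listed G1 to S gene above 0, although its start site kept a peak in both states. Cdk2 had 19.30 and 2.03 kb, E2f1 11.56 and 0.91 kb, and Myc fell to 0 as above, while Mycn had 15.61 and 6.62 kb. The replicative helicase gene Mcm4 was the kept one, with 1.69 and 1.33 kb. A peak stood at the start site in both states for 17 of 19 genes in the list.

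Metabolic and translation genes differed by list. Glycolysis genes were lost in 87% of cases, beside 79% of all genes. Shares were 60% for the tricarboxylic acid cycle and respiratory chain, 50% for translation initiation factors and 70% for ribosomal proteins. All were above the 28.6% of core pluripotency genes. Against the list totals 6 of 23 glycolysis genes and 3 of 20 tricarboxylic acid cycle and respiratory chain genes were lost. So were 2 of 12 translation initiation factors and 7 of 80 ribosomal protein genes. Each was a smaller share than the 36.2% of all genes on that scale. Of 23 glycolysis genes 20 were lost: Ldha, lactate dehydrogenase A, had 12.51 and 1.09 kb, Slc2a1 (GLUT1) 20.85 and 8.13 kb, Slc2a3 (GLUT3) 54.20 and 18.29 kb and Hk2 38 and 16.05 kb. Ldhb moved the other way, with 3.54 and 6.59 kb, under the 2-fold limit. Of 20 tricarboxylic acid cycle and respiratory chain genes 12 were lost and 8 kept. Among the kept ones Ndufs1 (complex I) had 10.33 and 9.88 kb, and the rise of Acad9, a complex I assembly factor, from 7.46 to 14.42 kb was the largest in the list. Translation initiation factors were lost in 6 of 12 cases, with Eif4a2 at 11.64 and 12.44 kb, a small rise that turned to a log2 ratio of -0.42 with 50 kb on either side. Of 80 cytoplasmic ribosomal protein genes 56 (70%) were lost and 24 kept, and 75 of 77 start sites acetylated in ESC stayed so in L-EPSC. For this abundant housekeeping set the bases thus shrank around start sites that nearly all kept a peak.

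**Figure D5:**
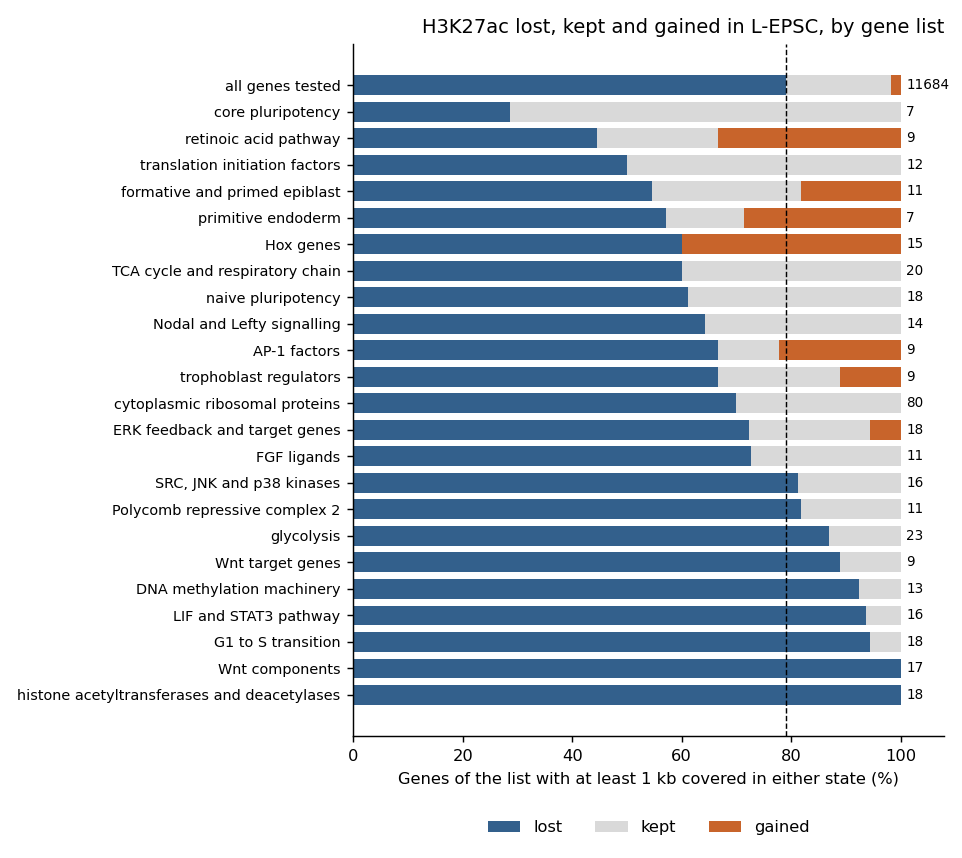
Share of genes (x axis, %) lost, kept and gained in L-EPSC for 23 gene lists with at least 5 genes tested and for all genes tested, with the number of genes tested at the right; the dashed line marks the 79% lost over all genes. Core pluripotency genes have the smallest share lost (28.6%), histone acetyltransferases and deacetylases and Wnt components the largest (100%), and gained genes appear in the retinoic acid, Hox, primitive endoderm, formative, AP-1, trophoblast and ERK lists.

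Genes of other early lineages carried little acetylation in either state, with some exceptions. Of 20 trophoblast regulators 9 reached 1 kb, and Cdx2, Elf5, Krt7, Krt18 and Tpbpa had no peak. Tead4, which acts upstream of Cdx2 in the trophectoderm, had 45.98 kb in ESC and 1.72 kb in L-EPSC, and Tfap2a 16.20 and 3.57 kb. Sox21, which biases blastomeres of the early embryo, had no ESC peak and 6.57 kb in L-EPSC, with a peak at its start site. Among primitive endoderm genes Gata6, Sox17, Sox7, Foxa2 and Pdgfra had no peak in either state. The laminin genes Lamc1 (54.44 and 4.02 kb) and Lama1 (12.56 kb and none) were lost, whereas the neighbouring collagen IV genes Col4a1 (0.72 and 4.03 kb) and Col4a2 (none and 3.54 kb), which share a divergent promoter, were gained. Their H3K4me1 was higher in L-EPSC as well, with 8.23 and 23.78 kb at Col4a1 and 13.26 and 24.19 kb at Col4a2. The windows of Col4a1 and Col4a2 overlap at the shared promoter, so these gains are not independent. Of 13 genes tied to the 2-cell stage only 3 reached 1 kb and all were lost, beside 79% of all genes. Pramel7 had 17.44 and 2.12 kb and Pramel6 16.10 and 5.70 kb, while 3 Zscan4 genes were at 0 in both states.

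Fibroblast markers, checked because feeder fibroblasts were an option in culture, carried few peaks. Only 2 of 16 reached 1 kb, Col1a1 with 11.12 and 1.89 kb and Col3a1 with 2.19 and 1.03 kb. Thy1, Twist1, Prrx1, Postn, Lum and Dcn had no peak in either state, and none of the 16 had a peak at its start site in either.

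Some developmental genes gained acetylation. Formative and primed epiblast genes were lost in 6 of 11 cases (54.5%), kept in 3 and gained in 2, beside 79% lost and 1.69% gained over all genes. Against the list totals 3 of the 11 were lost and 4 gained, beside 36.2% and 13.6% of all genes. The 2 gained as listed were adjacent genes. Zic2, a partner of OCT4 when cells leave the naive state, had 0.37 and 3.90 kb, and Zic5 had 1.45 and 5.58 kb. Their windows overlap, so these gains are not independent. With 50 kb on either side the log2 ratio of Zic2 was 0.18 and it was no longer gained. In EPSCs from the other protocol of the study (D-EPSC), read against the same ESC list, Zic2 had 8.69 kb and Zic5 9.04 kb. Fgf5, Pou3f1, T and Foxa2 had no peak in either state, Otx2 had 11.11 and 4.99 kb, and Lin28a 6.25 and 0.23 kb.

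Of 9 retinoic acid genes tested 4 (44.4%) were lost, 2 kept and 3 gained, against 79% lost and 1.69% gained over all genes. The list is small and was chosen with earlier results known. Among the gained ones the receptor gene Rarb had 0.51 and 1.55 kb and Stra8 1.17 and 3.56 kb. Dhrs3, a retinal reductase, had 2.74 and 8.04 kb, and each of these 3 is a known retinoic acid target. Stra8 and Dhrs3 gained a peak at the start site. D-EPSC had 3.67 kb at Rarb, 0.60 kb at Stra8 and 0.50 kb at Dhrs3. The receptor genes Rara (31.69 and 9.65 kb) and Rarg (26.78 and 7.30 kb) were lost. The enzyme genes Cyp26a1 and Cyp26b1 had no peak in either state. The fourth widest gained region lay in Ccdc33, 19203 bp from the start of Stra6, the retinol-binding protein receptor gene.

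Hox genes split by cluster. Of 39 genes 15 reached 1 kb, and 9 (60%) were lost, 6 gained and none kept. Over all genes 79% were lost and 1.69% gained. The 6 gained lay at the front of the HoxA cluster, and among them Hoxa3 had 0.39 and 5.58 kb, and Hoxa5 no ESC peak and 2.39 kb. Their windows overlap, so these 6 are 1 stretch of chromatin and not 6 independent gains. D-EPSC had 1.66 kb at Hoxa3 and none at Hoxa5. Of the 9 lost, 8 were in HoxC, led by Hoxc13 (12.94 and 0.94 kb) and Hoxc12 (11.69 and 0.94 kb), and 1 was Hoxb13 (2.25 kb and none). Windows of neighbouring HoxC genes overlap too, so these 8 are not independent losses. No HoxD gene reached 1 kb. H3K4me1 moved the same way over Hoxa3 (36.01 and 41.70 kb) and Hoxc6 (18.88 and 8.95 kb) but not over Hoxc13 (12.60 and 13.55 kb).

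The 198 gained genes lay in 168 separate windows, and 58 of them had no ESC peak at all. They had little acetylation to begin with, at a median of 0.47 kb in ESC and 2.00 kb in L-EPSC, against 5.88 and 1.00 kb for the lost genes and 3.33 and 2.54 kb for the kept ones. H3K4me1 was more extensive in L-EPSC than in ESC at 76.3% of gained, 41.8% of kept and 12.4% of lost genes. Of the gained genes 20.2% had a start-site peak in L-EPSC alone and 61.6% had none in either state.

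Rises were smaller than falls. Among genes of up to 100 kb the largest rise was at Cuedc1, from 14.82 to 30.60 kb, followed by Fgf1 as above and 4930524B15Rik, from 3.71 to 12.20 kb. Serpina3m rose from 0 to 5.92 kb and had no H3K4me1 in ESC and 8.51 kb in L-EPSC. Ly6a, which encodes the surface antigen Sca-1, had 5.17 and 10.65 kb, Kng2 6.83 and 12.34 kb, and Ccdc11 0.48 and 7.24 kb. With 50 kb on either side the log2 ratio of Cuedc1 was 0.69, that of Serpina3m 0.45 and that of Ly6a 0.43, so these rises were local. A longer gene, picked after its values were seen, rose more: Enpp6, a choline phosphodiesterase gene, had 0.92 kb in ESC, 30.09 kb in L-EPSC and 4.98 kb in D-EPSC, with H3K4me1 of 7.43 and 32.73 kb in ESC and L-EPSC.

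The largest falls among genes of up to 100 kb came to more than 40 kb each. Tsc22d1 had 77.44 and 23.70 kb, Reep3 76.55 and 23.58 kb, Ccnd3 (cyclin D3) 78.76 and 30.89 kb and Pecam1, a surface molecule of naive cells, 64.25 and 19.66 kb. These 4 kept over 30% of their bases, and against the list totals none of them was lost. Others kept less: Fam129b had 54.57 and 4.44 kb, Coro1c 56.44 and 8.80 kb, Stk24, also not lost against the list totals, 53.91 and 8.97 kb, Diap1 51.82 and 6.92 kb and Rftn2, a raft-linked protein gene, 45.96 and 0.26 kb. Akap12, a kinase scaffold, had 62.80 and 17.38 kb. H3K4me1 was also lower in L-EPSC, with 46.26 kb in ESC and 25.74 kb in L-EPSC in Rftn2, and 61.01 and 41.80 kb in Fam129b. Among genes with no L-EPSC peak, picked after their values were seen, Ntn1 (netrin 1) had the most in ESC with 41.50 kb, followed by Epb4.1l4b with 33.43 kb, Gng2 with 32.23 kb and Nedd4l with 31.50 kb. In D-EPSC these 4 had none, 0.20, 3.36 and 2.56 kb.

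Isolated regions give the clearest single loci. Of the ESC peaks 23277 (36.2%) were lost with no L-EPSC peak within 10 kb, and of the L-EPSC peaks 1636 (6.07%) were gained with no ESC peak within 10 kb. The widest lost region spanned 28393 bp at chr1:55243959-55272351, over exons and introns of Rftn2. Next came 17479 bp between genes near Tpd52 (chr3:9097471-9114949), 13215 bp in Capn5 (chr7:105306754-105319968) and 12394 bp in an intron of Tead4 (chr6:128203141-128215534). Regions in Nrp2, a semaphorin and VEGF co-receptor gene, Fgf10, Nhej1 and Ryr2 were 11582, 11483, 11284 and 11124 bp wide. None of the 8 lay within 1 kb of a start site, and their distances to one ran from 6816 bp (Capn5) to 192785 bp (Ryr2). Of the 8 widest gained regions 6 lay outside protein-coding genes. The widest, at chr17:65106578-65116154, had 9577 bp, the next, at chrX:112084049-112091859, 7811 bp and the third, at chr16:12773316-12780760 near Gm6327, 7445 bp. The others were in Ccdc33 (5750 bp) and Synj2 (4716 bp) and near Akr1c21 (5392 bp), Gm382 (4582 bp) and Tmx1 (4475 bp). Some of these gained regions were acetylated in D-EPSC as well. H3K27ac peaks of D-EPSC covered 7456 bp of the chrX:112084049-112091859 region, 5017 bp near Gm6327, 5248 bp near Akr1c21 and 4290 bp near Gm382. They covered 1045 bp of the widest region, 1277 bp in Synj2 and none in Ccdc33 or near Tmx1.

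Wide shared stretches lay over other genes than these. The ESC peak over Sall1 was 43401 bp wide with 86.2% shared, the peak over Gabrp 36906 bp with 90.3%, that over Klf2 and Eps15l1 40272 bp with 75.6%, and that over Zfp57 and H2-M5 34944 bp with 82.9%. Peaks over Fbxo36 (43759 bp), Adrb3 and Eif4ebp1 (41371 bp) and Etl4 (39790 bp) shared 76.7%, 80.8% and 72.1%. The highest share among these 7 stood at Gabrp, and the lowest at Etl4.

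Neighbouring ESC peaks were joined across short gaps, in the way super-enhancers are usually joined, into 18162 domains and ordered by their ESC bases. L-EPSC bases came to 32.9% of ESC bases in the first 100, 30.8% in the next 900 and 27.2% in the rest. By this ratio the broadest domains fell nearly as far as the small ones. The ratio counts any L-EPSC bases inside a domain, so it reached 147.4% in a domain of the next 900. None of the first 100 was at 0, against 51.1% of the domains after the first 1000. Within the first 100 the share kept ran from 6.8% to 91.8%. The domain with the most ESC bases, over Rbpms, Dctn6, Mboat4 and Leprotl1 on chromosome 8, fell from 205.85 to 85.08 kb (41.3%), and the Tcf7l1 domain from 173.05 to 47.63 kb (27.5%). The domain that holds Apobec1, Gdf3, Dppa3, Nanog, Slc2a3 and Foxj2 fell from 126.78 to 51.08 kb (40.3%). The best-kept domain lay over Trim24, a gene of a chromatin reader and p53 ligase, with 114.55 and 105.18 kb (91.8%), followed among named ones by Rnf125 and Rnf138 (66.3%), the Hist1 histone cluster (65.2%), Sall1 (63.7%) and Fignl1 with Ddc (63.6%). The least kept were a stretch without a start site at chr4:149684432-150000949 (114.07 and 7.81 kb, 6.84%), Appl1 with Hesx1 and Il17rd (81.06 and 5.58 kb, 6.88%), Poldip3 with Cyb5r3, A4galt and Arfgap3 (8.76%), Coro1c with Selplg and Ssh1 (10.5%) and Tle3 (11.7%).

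H3K4me1 was present at most lost peaks in both states. In ESC 82.1% of the lost and 84.7% of the kept ESC peaks met an H3K4me1 peak. In L-EPSC 63.9% of the lost and 92.3% of the kept ones did. Of the gained L-EPSC peaks 43.5% already met H3K4me1 in ESC and 74.4% met it in L-EPSC. Lost peaks were narrower than kept ones (median 703 against 2019 bp), and these shares were not matched for width. At equal covered bases 100% of the 388 lost wide peaks met H3K4me1 in ESC and 99.2% in L-EPSC. The 3337 kept wide peaks met it in 99.9% of cases in either state. All these peaks were 5131 bp or wider and 1 bp was enough to meet. Such shares therefore cannot show how much H3K4me1 stayed. The H3K4me1 lists were called on their own samples, and their depth is unknown as well.

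Motif letters were counted in distal kept, lost and gained peaks, read in 500 bp at the centre and on both strands. Over all positions the median peak width was 2019 bp for kept, 703 bp for lost and 444 bp for gained peaks. Gained windows thus ran past the peak more often than kept ones, and the shares were not adjusted for this. The TCF/LEF letters CTTTGAT were found in 6.87% of kept, 7.83% of lost and 7.28% of gained windows, against 4.97% at all start sites. The AP-1 letters TGACTCA were in 12.4%, 10.5% and 10.9% (6.15% at start sites), and the SOX letters ACAATGG in 7.71%, 6.86% and 7.48% (4.64%). The octamer ATGCAAAT was in 2.63%, 2.54% and 2.23% (2.12%). The ESRRB letters TCAAGGTCA were in 2.97%, 2.42% and 2.03% (0.604%), and the KLF letters GGGTGTGG in 6.37%, 6.31% and 4.56% (5.52%). The nuclear receptor direct repeat AGGTCANNNNNAGGTCA was in 10 of 13746 kept, 20 of 42805 lost and 2 of 3050 gained windows. Median GC content was 47.0%, 47.0% and 47.6%, and 57.2% at start sites. Gained windows held KLF, ESRRB and octamer letters least often. Among rarer letters, those of NRF1 (GCGCATGCG) were in 0.306% of kept, 0.157% of lost and 0.164% of gained windows (2.41% at start sites), and those of ETS (CCGGAAGT) in 0.96%, 0.67% and 0.984% (5.77%).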

How the data were processed

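Peak lists were taken as deposited. Per the labels and the study's methods, the authors cut adapters with Trim Galore 0.6.3, aligned paired reads to mm9 with Bowtie2 2.3.5, handled alignments with SAMtools 1.10 and called broad peaks against input with MACS. The deposited files hold peak positions only, with no signal or p-value, and 1 list serves the 2 samples of a state. The peak threshold and how replicates were joined are not given in the sources used here, so list size can follow read depth or enrichment as well as acetylation, and which of these it followed cannot be told apart. The H3K4me1 list of D-EPSC was not used here.

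Overlap, covered bases and distances were computed in Python 3.11.15 with numpy 2.4.6 on chromosomes 1 to 19 and X, against 22350 protein-coding genes of GENCODE M1 (NCBIM37, the same build as mm9; no peak ran past a chromosome end). A start site was the annotated 5′ end of a gene with 1 kb on either side. Log2 ratios used a pseudocount of 100 bp. The interval code was tested on 200 simulated pairs of lists checked base by base, with 0 errors.

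Genes named were the anchors of 25 gene lists, the 10 largest falls and rises per direction among genes of up to 100 kb with separate windows, the 8 widest isolated regions of each class and the leading joined domains; other list members are named as examples, and those picked on their values are said to be so. Of the list genes 535 were matched, 10 through older symbols, and 4 were not found; some genes stand in several lists. A few named genes and windows are not reported here. The members and lists were chosen with earlier results of these data known. Sequences came from the NCBIM37 genome; windows that touched an annotated exon (those of Rftn2, Capn5 and Nrp2) were passed over. With 1 list per state no test, interval or error could be computed. Alternatives were other overlap rules, start-site widths, gene windows, fold and size limits, equal covered bases, values against list totals, joining distances and motif windows.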

Additional observations from a re-analysis of the deposited data

How the results depend on the processing

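No paired analysis was possible because each state has 1 list and its columns carry no replicate numbers, and leaving out a sample could not be run, since each list stands for both samples of its state. Direction over all genes held wherever the lists were used whole: lost genes outnumbered gained ones with 50 kb windows, by nearest start site, with a 4-fold limit (5909 lost, 5678 kept, 97 gained), with at least 2 kb covered (98 gained), with peaks of at least 500 bp and against list totals (4235 lost, 5863 kept, 1586 gained). It turned at equal covered bases (1267 lost, 1461 kept, 4381 gained). It turned again in an alternative chosen after seeing the data, which compared the widest peaks of both lists up to 17.14 Mb each. That gave 641 lost, 416 kept and 1832 gained genes, with 882 ESC peaks kept and 296 lost. Both settings turn by construction, since they cut the ESC list at a greater width than the L-EPSC list. The narrowest ESC peak left was 5131 bp in the first, where the L-EPSC list was whole. In the second it was 9416 bp, against 2073 bp for L-EPSC. The number of lists with a smaller share lost than all genes was 14 of 25, and between 11 and 18 across the settings.

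For peaks, asking for 50% of the query peak left 9452 ESC peaks kept, and 50% of both peaks left 7064 kept with 19902 L-EPSC peaks gained; peaks of at least 500 bp gave 2393 gained. At equal covered bases 3337 ESC peaks were kept, 388 lost and 19869 L-EPSC peaks gained, and start sites were 780 in both, 126 in ESC only and 5660 in L-EPSC only. Of the gained peaks 70.51% had H3K4me1 of ESC within 1 kb and 66.83% met it at equal covered bases, where 99.23% of lost ESC peaks met H3K4me1 in L-EPSC.

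The sign of the log2 ratio of single genes changed as follows. The cause is the removal of ESC peaks under 5131 bp in the first case and the shift by the list totals in the second. At equal covered bases the values were Col3a1 3.50, Dusp6 4.84, Ep300 4.59, Esrrb 0.04, Ezh2 4.10, Hk2 0.15, Klf4 5.26, Lefty1 5.23, Mapk14 3.90, Ndufs1 0.23, Slc2a1 0.04, Socs3 0.08, Sox2 0.36, Stat3 5.14, Tcf7l1 0.02, Tfap2c 4.07, Tnks 0.27, Tnks2 4.33 and Zfp42 0.10. Against list totals they were Ccnd1 0.08, Ccnd3 0.30, Col3a1 0.54, Dusp6 0.62, Ep300 0.53, Esrrb 1.26, Etv5 1.09, Fgf4 0.98, Hk2 0.40, Klf4 0.49, Lefty1 0.71, Mapk8 0.18, Mycn 0.41, Nanog 1.01, Ndufs1 1.57, Nodal 0.82, Otx2 0.49, Pou5f1 1.13, Pramel6 0.15, Sall4 0.27, Slc2a1 0.29, Slc2a3 0.08, Socs3 0.60, Sox2 1.16, Tet1 0.09, Tet2 0.59, Tfap2c 0.92, Tfcp2l1 0.19, Tnks 0.26, Utf1 0.23 and Zfp42 0.58. With 50 kb on either side they were Dnmt3a -0.20 and Eif4a2 -0.42. By nearest start site they were Dnmt3a -1.83, Eif4a2 -0.36 and Lefty1 0.28, for which the cause was not tested. Precision is limited by the single list per state, whose depth is unknown.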
